A study of Homo sapiens with 60 samples.

Results

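The genes described here are 39 genes of serum response factor (SRF), its cofactors and the actin cytoskeleton, listed by name and looked up among the 38342 gene names of a table of expression levels. The names were given as a list, proposed with earlier results of these data in view. They hold SRF, the genes of its MRTF cofactors, 3 actins, and genes of proteins that bundle, coat, contract, anchor, assemble or regulate actin filaments. All 39 were in the table, and 38 passed the filter on low levels (at least 1 FPKM in at least 3 libraries, FPKM being reads scaled to transcript length and library size). CNN1, the smooth muscle calponin, did not pass: it was listed at 0 in 27 of 60 libraries and reached at most 0.116 FPKM.

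SRF is a DNA-binding protein that sits on a short AT-rich sequence called the CArG box. Its MRTF cofactors bind monomeric actin in the cytoplasm. When monomers are used up as filaments grow, through formins and other assembly factors, the cofactors are released, enter the nucleus and switch on SRF target genes, many of which encode actin itself and actin-binding proteins. A separate set of SRF targets, the immediate early genes, is switched on through ternary complex factors after growth factor signalling.

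RNA was measured in MDA-MB-231 cells, an established human breast cancer cell line of mesenchymal character, after DMSO or the compound BAY2506856. The labels name no target for the compound. There were 16 groups and 60 libraries. DMSO was sampled at 1, 3, 6 and 24 h with 6 libraries at each time, and 100, 300 and 1000 nM of the compound were each sampled at the same 4 times with 3 libraries. The design text mentions only the 24 h harvest, while the sample labels give all 4 times, and the labels were used. No label says whether libraries of a group came from separate cultures, so p-values measure the spread between these libraries, which may be technical. In bulk RNA, fewer cells of a kind and less RNA per cell cannot be told apart.

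Libraries differed in ways the groups do not explain. Depth, recovered from the deposited values, ran from 475370 to 86491496 reads with a median of 11178780, and the 3 shallowest libraries had at most 1890474. By the levels of 11 pseudogenes and of MT-ND6, the libraries fell into 3 types: 41 of a first type, 13 of another and 6 of the third, the last found only among DMSO libraries at 1 and 3 h. At 24 h the second type made up 2 of the 3 libraries at 1000 nM (replicates 1 and 3), 1 of 3 at 300 nM (replicate 2), 0 of 3 at 100 nM and 1 of 6 in DMSO (replicate 2, the shallowest). What sets the types apart was not tested. Results are therefore given for all libraries and, where the value or call moves, also with a model term for each library type or within the first type alone. The first type leaves only replicate 2 (31750141 reads) at 1000 nM and 24 h. First-type values for that group therefore rest on 1 library, which is assumed to vary as libraries of the other groups do, and their p-values hold no replicate check of the group. VIM, CD44, EGFR, AXL, KRT8 and KRT18 were present in every library, with VIM at 397 to 642 FPKM, and ESR1 was at 0 in 59 libraries. Of the other genes listed as low or absent in this line, PGR and CDH1 reached at most 0.0128 and 1.09 FPKM. ERBB2 (4.75 to 10.6 FPKM) and EPCAM (4.43 to 16.3) were present in every library. At 24 h these 5 genes summed to 13.5 to 17 FPKM in DMSO and 20 to 23.6 at 1000 nM. Among smooth muscle markers, DES and ACTG2 reached at most 0.126 and 0.176 FPKM and LMOD1 was at 0 in 36 libraries. MYH11 (0.318 to 0.946 FPKM) and PDGFRB (0.177 to 1.62) were low but above 0 in every library. Of 5 striated muscle markers, ACTA1, the skeletal actin, stood at 9.32 to 25.3 FPKM while CKM and TNNT3 were at 0 in 58 and 59 libraries.

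Promoter sequences come first, because the CArG box is the sequence through which SRF acts. Windows of 300 bases, from 250 before to 50 after each RefSeq transcript start (GRCh38.p14), were held for 36 of the 39 genes, with MKL1 and MKL2 found under the symbols MRTFA and MRTFB. No window was held for ACTB, TAGLN and MYL9. The CArG box was searched for on both strands, as a pair of C, 6 letters that are each A or T, and a pair of G. It was present in the windows of 8 of the 36 genes and of 438 of 27305 genes (1.60%). Listed genes had more starts per gene than others, so the count over windows is also given: 10 of 67 windows of the listed genes and 454 of 35116 windows in all (1.29%) held a box. SRF targets are in part known by this sequence, so its presence among them is a description of the list. A box of each of the 8 genes is shown 5′ to 3′ on the strand of the gene, with the box in capitals and up to 25 bases on each side. The first 5 belong to genes that were lower at 1000 nM and 24 h and the last 3 to genes that did not pass the test there.
SRF, chr6:43171214-43171268, plus strand, box 30 bases before the start: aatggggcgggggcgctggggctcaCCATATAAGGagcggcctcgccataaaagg
ACTG1, chr17:81512859-81512918, minus strand, 94 bases before: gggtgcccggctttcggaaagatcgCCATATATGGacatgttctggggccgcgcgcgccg
ACTN1, chr14:68977703-68977762, minus strand, 171 bases before: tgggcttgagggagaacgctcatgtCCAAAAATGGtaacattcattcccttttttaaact
CNN2, chr19:1026494-1026553, plus strand, 89 bases before: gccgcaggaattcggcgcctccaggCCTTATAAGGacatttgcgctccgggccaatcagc
FHL2, chr2:105399076-105399135, minus strand, 59 bases before: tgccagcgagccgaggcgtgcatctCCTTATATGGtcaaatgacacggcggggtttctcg
FLNA, chrX:154374694-154374753, minus strand, 94 bases before: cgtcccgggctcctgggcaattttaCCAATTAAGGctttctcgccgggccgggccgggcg
TPM4, chr19:16067340-16067399, plus strand, 173 bases before: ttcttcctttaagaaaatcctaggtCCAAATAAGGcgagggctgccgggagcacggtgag
ROCK2, chr2:11345476-11345535, minus strand, 73 bases before: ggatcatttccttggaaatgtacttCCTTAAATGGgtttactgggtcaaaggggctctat

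The printed SRF stretch ends with a further box, 10 bases before the start, and FHL2 has boxes at other starts too. Of the 8 genes with a box, 5 were lower and 0 higher at 1000 nM and 24 h, with a median log2 change of -0.64. Of the 27 tested genes with windows but no box, 6 were lower and 5 higher, with a median of 0.04. The counts were 5 lower and 0 higher against 6 lower and 9 higher with library type terms, where the medians were -0.46 and 0.05. In that fit 47.5% of all genes were called. The list was chosen with earlier results known, so these counts describe it and are no test of the box. All 3 genes with no window held (ACTB, TAGLN and MYL9) were lower. The letters GGAATG, a motif bound by TEAD factors, were in the windows of 14 of the 36 genes, against 16.7% of all genes. Counted over windows, 15 of the 67 windows of the listed genes held them, against 14.0% of all windows. Of the 14 genes that held GGAATG, 6 were lower and 3 higher at 1000 nM and 24 h, and of the 21 tested genes without it 5 were lower and 2 higher, where 34.7% of all genes were called. With type terms the genes without it had 5 lower and 6 higher. No match says only that the letters are not in these windows.

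The question of the main comparisons is which of these genes differ between each dose and DMSO of the same time. At 1000 nM and 24 h, SRF, FLNC, CNN2, MYL9, FHL2, ACTN1 and both cytoplasmic actins were lower, by 1.48-fold to 2.28-fold. The formin gene DIAPH3 and the actin-bundling gene LIMA1 were lower as well, while VCL, MYL6, MYL12A, ARPC5 and MKL2 were called higher. In all, 14 of 38 tested genes were lower and 5 were higher (limma on log2 of FPKM plus 0.5, with Benjamini-Hochberg adjustment over 15866 genes and a threshold of 0.05). Over all genes tested, 34.7% were called, 15.6% lower and 19.1% higher. These shares describe the list and are no test of it. The median log2 change was -0.10 over the 38 genes and 0.03 over all genes tested.

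At the lower doses the counts at 24 h were 12 lower and 3 higher at 300 nM (30.7% of all genes were called, 14.2% lower and 16.5% higher) and 7 lower and 1 higher at 100 nM (19.7%, 9.20% lower and 10.5% higher). At 300 nM SRF, FLNC, TAGLN, CNN2, MYL6 and ARPC5 were no longer called without replicate 2 (adjusted p = 0.0554 to 0.113), and TPM1 was not called without replicate 1, replicate 3 or DMSO replicate 2. At 100 nM VCL was not called without replicate 1 or 3, nor FHL2 without replicate 2. Library types moved these counts. With type terms they became 14 lower and 9 higher at 1000 nM (47.5% of all genes called), 14 and 7 at 300 nM (44.6%) and 12 and 4 at 100 nM (30.6%). Within the first type they were 13 and 5 (35.9%), 14 and 7 (42.8%) and 13 and 5 (35.7%). At 1000 nM the libraries of 10 listed genes did not overlap those of DMSO, where 22.8% of all genes did not.

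**Figure D1:**
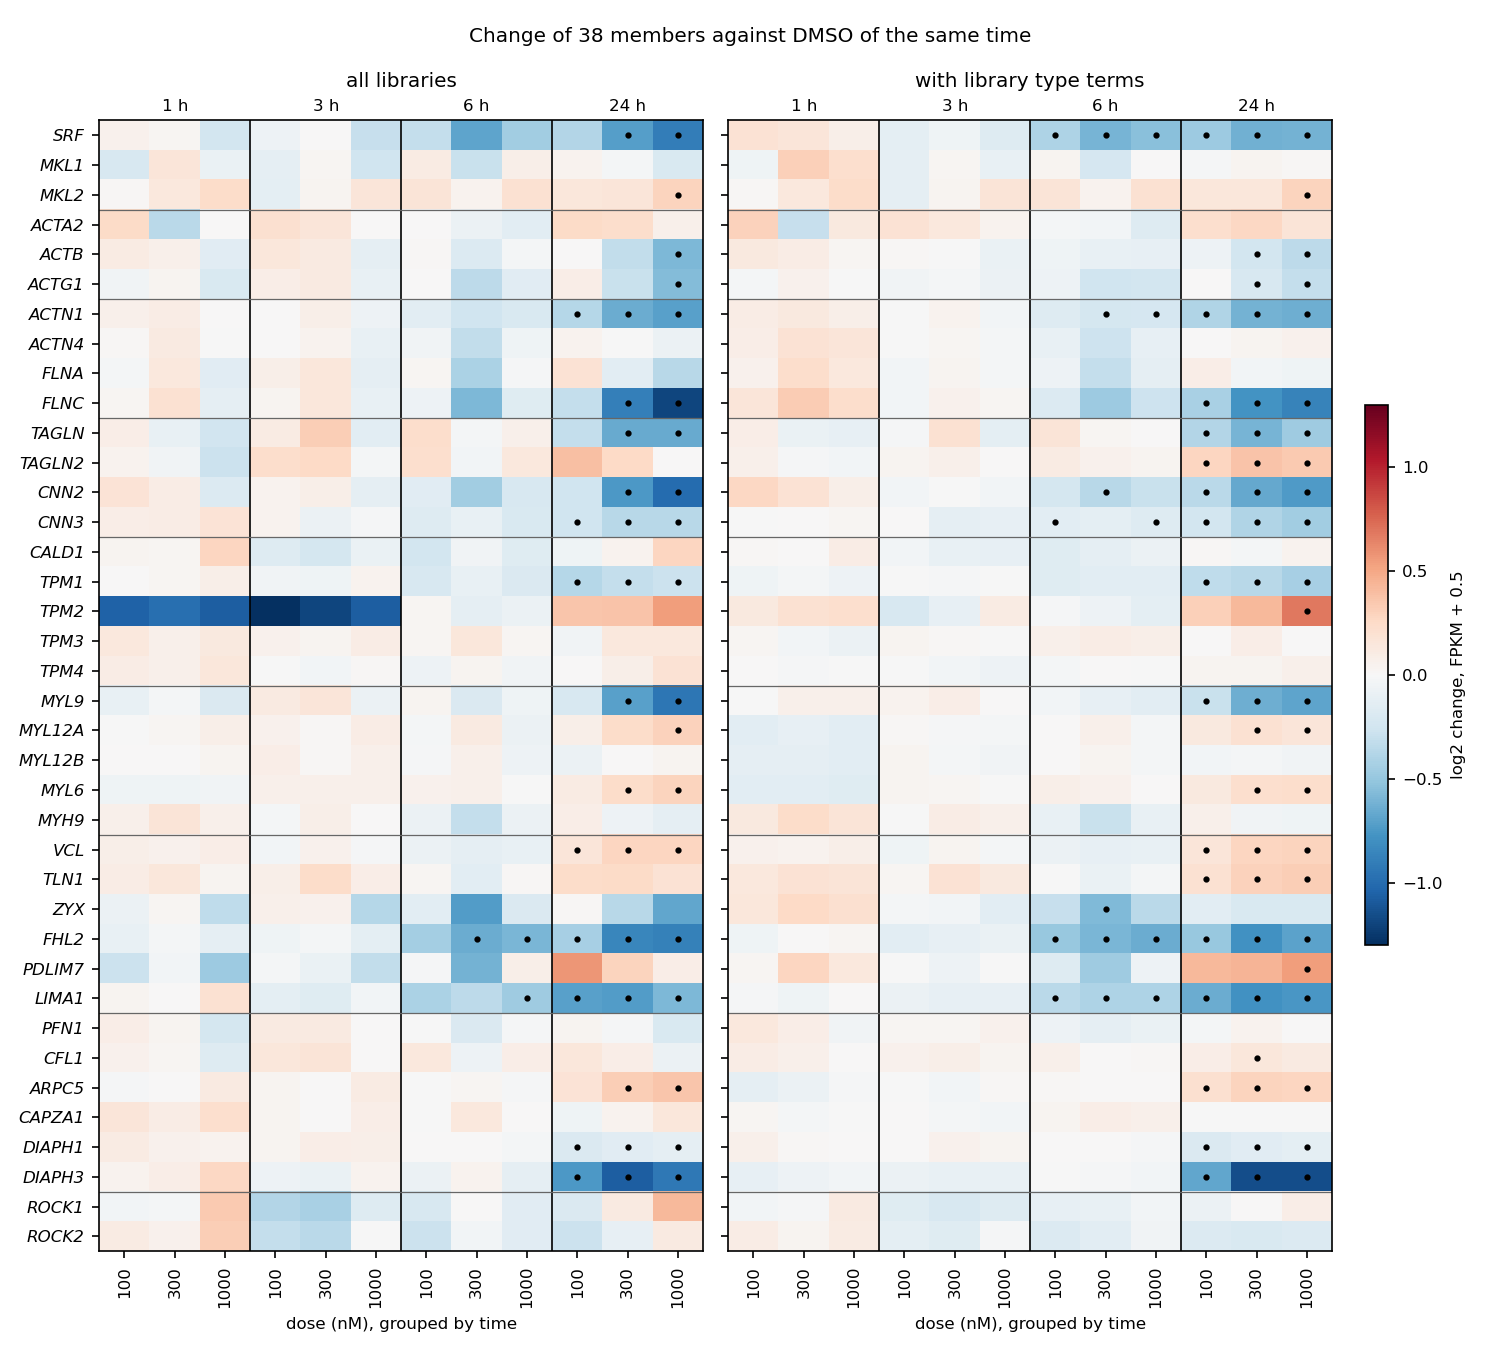
Log2 change of 38 genes (rows, grouped by role) against DMSO of the same time, for 3 doses at each of 4 times (columns), in all libraries (left) and with library type terms (right). Blue is lower, red is higher, and a black dot marks an adjusted p under 0.05. Dots appear at 6 h, and at 24 h ACTN1, FHL2, LIMA1 and DIAPH3 have them at all 3 doses in both panels, while SRF and CNN2 lack one at 100 nM in the left panel.

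SRF was the transcription factor of the list that was lower. In DMSO at 24 h it had a lowest level of 20.6, a median of 28.8 and a highest of 29.6 FPKM. It stood at 21.1, 20.4 and 19.6 FPKM at 100 nM, 19.1, 11.2 and 18.9 at 300 nM, and 12.5, 18.5 and 11.8 at 1000 nM. Every library at 1000 nM and at 300 nM lay below every DMSO library, while the 100 nM libraries overlapped the lowest DMSO library, which is of the second type. The change at 1000 nM was 1.87-fold lower (log2 -0.90, SE 0.20, adjusted p = 0.00029). It was -0.61 (SE 0.10, adjusted p = 2.03e-06) with type terms and -0.58 (adjusted p = 0.00219) in the first type alone. In each of the 13 cases the second-type library held less SRF than every first-type library of its group, DMSO groups included. The part of the library types in the size for all libraries was not tested beyond these fits. Within the first type the 3 doses gave -0.45, -0.54 and -0.58.

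The cofactor gene MKL1, which encodes MRTF-A, did not pass the test. Its levels at 24 h were 2.82, 3.87 and 4.43 FPKM (lowest, median and highest) in DMSO and 2.72, 4.76 and 2.45 at 1000 nM. The groups overlapped, and the change was -0.20 (SE 0.19, adjusted p = 0.435), against 0.02 with type terms and 0.31 in the first type. MKL2, which encodes MRTF-B, was at 0.997, 1.18 and 1.38 FPKM in DMSO and at 1.87, 1.34 and 1.45 at 1000 nM. It was called higher (0.29, SE 0.10, adjusted p = 0.0208), but the groups overlapped and the call did not hold in the first type alone (0.11, adjusted p = 0.491) or without replicate 1 at 1000 nM (0.19, adjusted p = 0.247).

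Both cytoplasmic actins, the building blocks of the cell's filaments, were lower at the top dose. ACTB was at 1192, 1688 and 1744 FPKM in DMSO at 24 h, at 1615, 1595 and 1518 at 100 nM, at 1418, 984 and 1423 at 300 nM, and at 958, 1360 and 895 at 1000 nM. Only the second-type DMSO library fell below the highest library at 1000 nM. ACTB was 1.49-fold lower at 1000 nM (-0.58, SE 0.15, adjusted p = 0.00208), and the change was -0.34 with type terms (adjusted p = 1e-04) and -0.29 in the first type (adjusted p = 0.0428). ACTG1 was at 866, 1223 and 1367 FPKM in DMSO, at 1217, 1222 and 1208 at 100 nM, at 1016, 729 and 1086 at 300 nM, and at 745, 1005 and 612 at 1000 nM. The lowest DMSO libraries overlapped the treated range. Its change of -0.56 (SE 0.17, adjusted p = 0.00665) was -0.31 with type terms (adjusted p = 0.00342) and -0.26 in the first type, where it did not pass (adjusted p = 0.12). Without replicate 3 at 1000 nM it was -0.40 and did not pass (adjusted p = 0.118). ACTA2, the smooth muscle actin, was low in these cells, at a mean of 1.27 ± 0.339 FPKM in DMSO (SD, n = 6) and 1.33 ± 0.258 at 1000 nM (n = 3), with no call. Actin genes have near-identical relatives and pseudogenes, and the sources used here do not say how reads matching several of them were counted, so their levels are uncertain.

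Among the filament cross-linkers, ACTN1 and FLNC were lower while ACTN4 and FLNA did not pass. ACTN1, the alpha-actinin of stress fibres, was at 54.6, 60.7 and 65.6 FPKM in DMSO at 24 h, at 49.9, 46.8 and 43.0 at 100 nM, at 40.6, 34.5 and 40.6 at 300 nM, and at 35.0, 39.2 and 35.4 at 1000 nM. At each dose all 3 libraries lay below all 6 DMSO libraries. The change at 1000 nM was 1.64-fold lower (-0.71, SE 0.08, adjusted p = 3.25e-10), and it was close to that with type terms (-0.63) and in the first type (-0.61). FLNC, the filamin of muscle, had the largest change of the list in all libraries, 2.28-fold lower (-1.19, SE 0.24, adjusted p = 7.6e-05). Its levels were 16.9, 30.1 and 40.9 FPKM in DMSO and 11.8, 17.7 and 8.60 at 1000 nM. Only the lowest DMSO library, of the second type, fell within the treated range. The change was -0.87 with type terms (adjusted p = 5.01e-06). ACTN4 had a change of -0.08 and FLNA of -0.36 (adjusted p = 0.672 and 0.208).

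**Figure D2:**
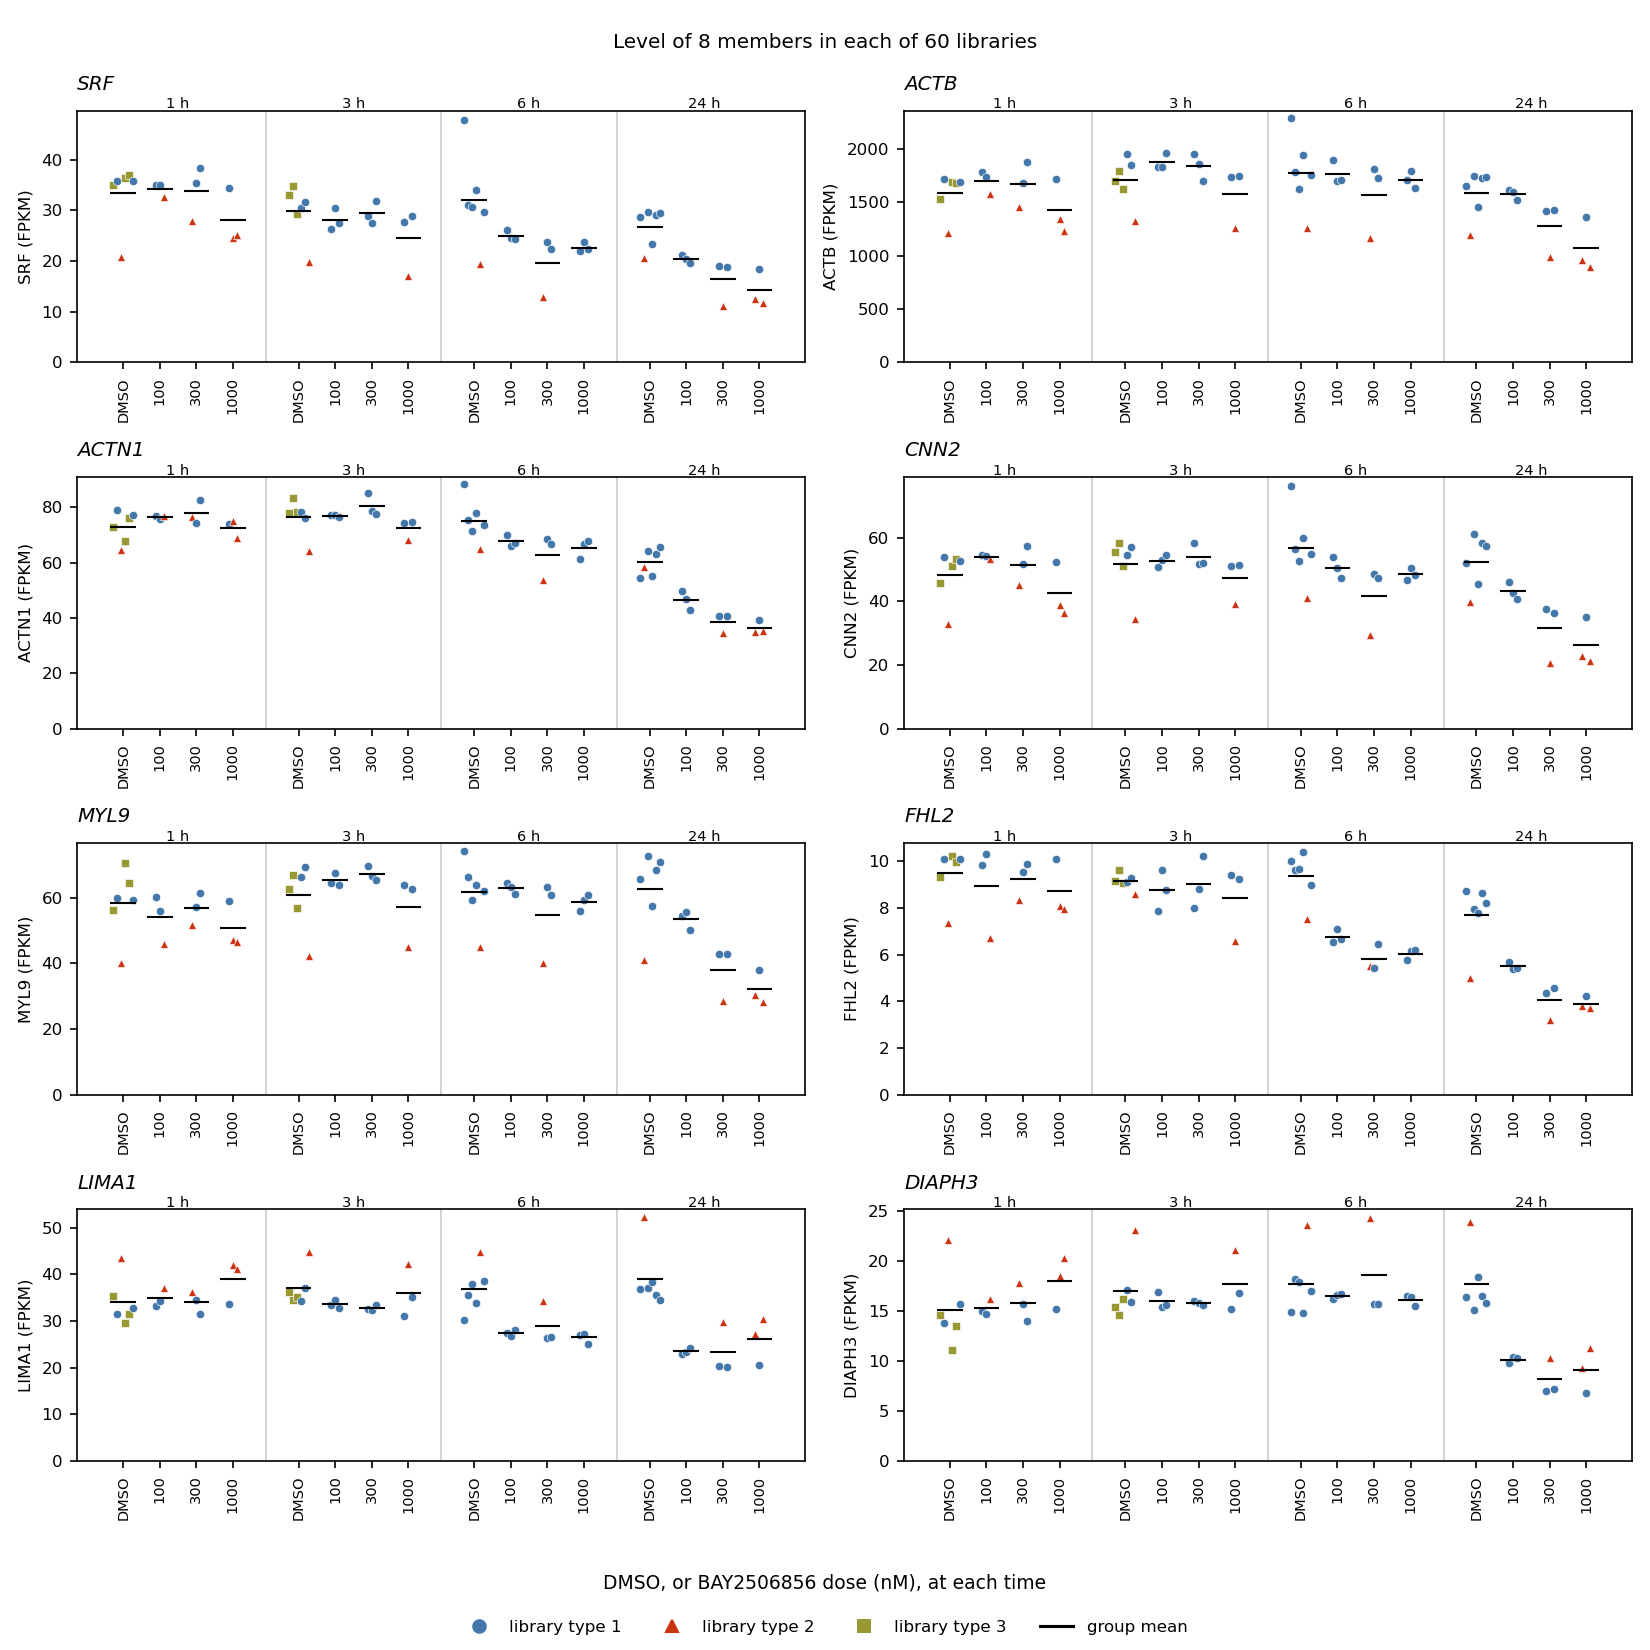
Level in FPKM (vertical axis, from 0) of SRF, ACTB, ACTN1, CNN2, MYL9, FHL2, LIMA1 and DIAPH3 in each of 60 libraries, by dose within each time, with bars at group means and the symbol and colour giving the library type. At 24 h the group means at 300 and 1000 nM lie below that of DMSO in all 8 panels, while ACTB at 100 nM (1518 to 1615) lies within the DMSO range. Second-type libraries (red triangles) lie below the rest of their group for SRF, ACTB, CNN2 and MYL9 and above it for LIMA1 and DIAPH3.

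The calponin family holds actin-binding proteins. CNN2 was at 39.7, 54.8 and 61.3 FPKM in DMSO at 24 h, at 46.1, 42.7 and 40.7 at 100 nM, at 37.7, 20.7 and 36.3 at 300 nM, and at 22.7, 35.0 and 21.4 at 1000 nM. All libraries at 300 and 1000 nM lay below all DMSO libraries. It was 2.0-fold lower at 1000 nM (-1.0, SE 0.18, adjusted p = 1.11e-05) and by -0.74 with type terms (adjusted p = 1.29e-08). TAGLN, or transgelin, was scarce, at 1.58, 3.04 and 4.05 FPKM in DMSO and at 1.15, 2.07 and 1.82 at 1000 nM, and rested on 3 to 249 reads per library in these groups. The groups overlapped through the lowest DMSO library, and the change was -0.66 (SE 0.17, adjusted p = 0.00182), or -0.47 without replicate 1 at 1000 nM, where it did not pass (adjusted p = 0.0608). CNN3 was lower with no overlap, at 192 ± 6.62 FPKM in DMSO (n = 6) and 149 ± 15.9 at 1000 nM (n = 3), a change of -0.36 (SE 0.07, adjusted p = 7.04e-05). TAGLN2 went the other way once types were in the model. Its change was 0.01 in all libraries (adjusted p = 0.967), 0.34 with type terms (adjusted p = 1.15e-05) and 0.35 in the first type (adjusted p = 2.06e-05).

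Tropomyosins wind along filaments and decide which proteins may bind them, and caldesmon binds beside them. Of these 5 genes only TPM1 was called in all libraries, lower by -0.28 at 1000 nM (SE 0.10, adjusted p = 0.0289). It was at 8.15 ± 1.61 FPKM in DMSO (n = 6) and 6.58 ± 1.14 at 1000 nM (n = 3), with overlap. TPM1 was -0.43 with type terms (adjusted p = 6.53e-08), and the call was lost without replicate 2 or replicate 3 at 1000 nM or replicate 2 of DMSO, with values of -0.17, -0.28 and -0.19. TPM3, TPM4 and CALD1 had changes of 0.14, 0.19 and 0.28 and did not pass. TPM2 was near 1 FPKM at 24 h, with 0 reads in the shallowest DMSO library, and its change was 0.54 (SE 0.48, adjusted p = 0.417) in all libraries and 0.69 with type terms (adjusted p = 0.00475). In DMSO at 1 and 3 h TPM2 split by library type: the 6 third-type libraries held 4.47 to 6.86 FPKM and the others 0.312 to 0.981.

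Myosin II pulls on actin filaments and consists of heavy chains with regulatory and essential light chains. The regulatory chain gene MYL9, whose product is phosphorylated to start contraction, was lower. It was at 41.0, 67.0 and 72.6 FPKM in DMSO at 24 h, at 54.5, 55.6 and 50.1 at 100 nM, at 42.9, 28.5 and 43.0 at 300 nM, and at 30.3, 38.1 and 28.3 at 1000 nM. All 1000 nM libraries lay below all DMSO libraries. The change was 1.91-fold lower (-0.94, SE 0.16, adjusted p = 8.4e-06), -0.69 with type terms (adjusted p = 1.93e-10) and -0.80 in the first type (adjusted p = 4.19e-08). The other regulatory chains differed from MYL9: MYL12B had a change of 0.04 and MYL12A was called higher by 0.30 (adjusted p = 0.0238), a call not held in the first type (0.10, adjusted p = 0.344) or without replicate 1 or 3 at 1000 nM or DMSO replicate 6 (adjusted p = 0.0501 to 0.150). MYL12A and MYL12B are near-identical in sequence, so the division of reads between them is uncertain. MYL6, the essential chain, was higher by 0.29 (SE 0.07, adjusted p = 0.00107). It was at 153 to 199 FPKM in DMSO and at 212, 188 and 215 at 1000 nM. The groups overlapped through the highest DMSO library, of the second type. The heavy chain gene MYH9 had a change of -0.12 and did not pass (adjusted p = 0.382).

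Adhesion and LIM proteins anchor filaments at the membrane or bundle them. FHL2, a LIM cofactor and known MRTF target, was at 4.99, 8.07 and 8.72 FPKM in DMSO at 24 h, at 5.70, 5.40 and 5.43 at 100 nM, at 4.34, 3.20 and 4.59 at 300 nM, and at 3.8, 4.21 and 3.70 at 1000 nM. All libraries at 300 and 1000 nM lay below all DMSO libraries. At 1000 nM it was 1.84-fold lower (-0.88, SE 0.13, adjusted p = 1.75e-07). LIMA1 encodes EPLIN, which bundles filaments and slows their turnover. It was at 34.6, 36.9 and 52.3 FPKM in DMSO, at 23.0, 23.3 and 24.3 at 100 nM, at 20.3, 29.8 and 20.2 at 300 nM, and at 27.3, 20.5 and 30.5 at 1000 nM. No treated library reached the DMSO range at any dose. LIMA1 was 1.5-fold lower at 1000 nM (-0.58, SE 0.12, adjusted p = 0.000166), and here the size grew when types were taken into account: it was -0.76 with type terms and -0.82 in the first type (adjusted p = 5.54e-14 and 4.19e-09).

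VCL, or vinculin, which links integrin complexes to actin, was higher. Its levels were 42.2, 45.0 and 48.2 FPKM in DMSO and 57.2, 54.5 and 53.0 at 1000 nM, with no overlap. The change was 0.28 (SE 0.05, adjusted p = 9.3e-06), and 0.29 and 0.26 with type terms and in the first type. TLN1, or talin, did not pass in all libraries (0.19, adjusted p = 0.176) and was higher with type terms (0.32, adjusted p = 0.000241) and in the first type (0.26, adjusted p = 0.0405). ZYX, or zyxin, a gene often used as an MRTF target, differed much between fits. Its change was -0.68 in all libraries (SE 0.32, adjusted p = 0.0999), -0.20 with type terms and -0.06 in the first type, and it did not pass in any of the 3. PDLIM7 had changes of 0.09, 0.54 and 0.61 in those fits and passed only with type terms (adjusted p = 0.0253).

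Formins, the Arp2/3 complex, profilin, cofilin and capping protein build and dismantle filaments. DIAPH3, the formin mDia2, was at 15.1, 16.4 and 23.9 FPKM in DMSO at 24 h, at 9.77, 10.4 and 10.3 at 100 nM, at 7.05, 10.3 and 7.18 at 300 nM, and at 9.29, 6.80 and 11.3 at 1000 nM. Every treated library lay below every DMSO library at all 3 doses. It was 1.90-fold lower at 1000 nM (-0.93, SE 0.16, adjusted p = 5.74e-06), and -1.15 with type terms (adjusted p = 4.5e-17), the largest change of the list in that fit. DIAPH1, the formin mDia1, was at 40.9 ± 1.52 FPKM in DMSO (n = 6) and 37.6 ± 0.0971 at 1000 nM (n = 3), with no overlap. That is a small change (-0.12, SE 0.04, adjusted p = 0.0247), and the call was lost without any of the 3 libraries at 1000 nM or replicate 2 of DMSO, at adjusted p = 0.054 to 0.0734. ARPC5, a subunit of Arp2/3, was higher by 0.36 (SE 0.08, adjusted p = 0.000459). It was at 25.1 to 31.7 FPKM in DMSO and at 37.0, 31.1 and 37.1 at 1000 nM. The groups overlapped through the highest DMSO library, of the second type. PFN1, CFL1 and CAPZA1 had changes of -0.20, -0.08 and 0.15 and did not pass.

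ROCK1 and ROCK2 encode kinases that phosphorylate LIM kinase and proteins of the myosin II motor. Neither kinase gene passed in all libraries. ROCK1 was at 7.56, 8.31 and 13.4 FPKM in DMSO at 24 h and at 14.4, 8.22 and 14.6 at 1000 nM. The high values in both groups belong to second-type libraries, and the groups overlapped. Its change was 0.42 (SE 0.20, adjusted p = 0.114), and 0.09 and 0.01 with type terms and in the first type. ROCK2 was at 9.48, 10.6 and 16.5 FPKM in DMSO and at 13.9, 8.47 and 15.0 at 1000 nM, again with the high values in second-type libraries. Its change was 0.12 in all libraries (SE 0.19, adjusted p = 0.685), -0.18 with type terms and -0.26 in the first type, where 1 library stands for 1000 nM and the adjusted p was 0.0106.

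**Figure D3:**
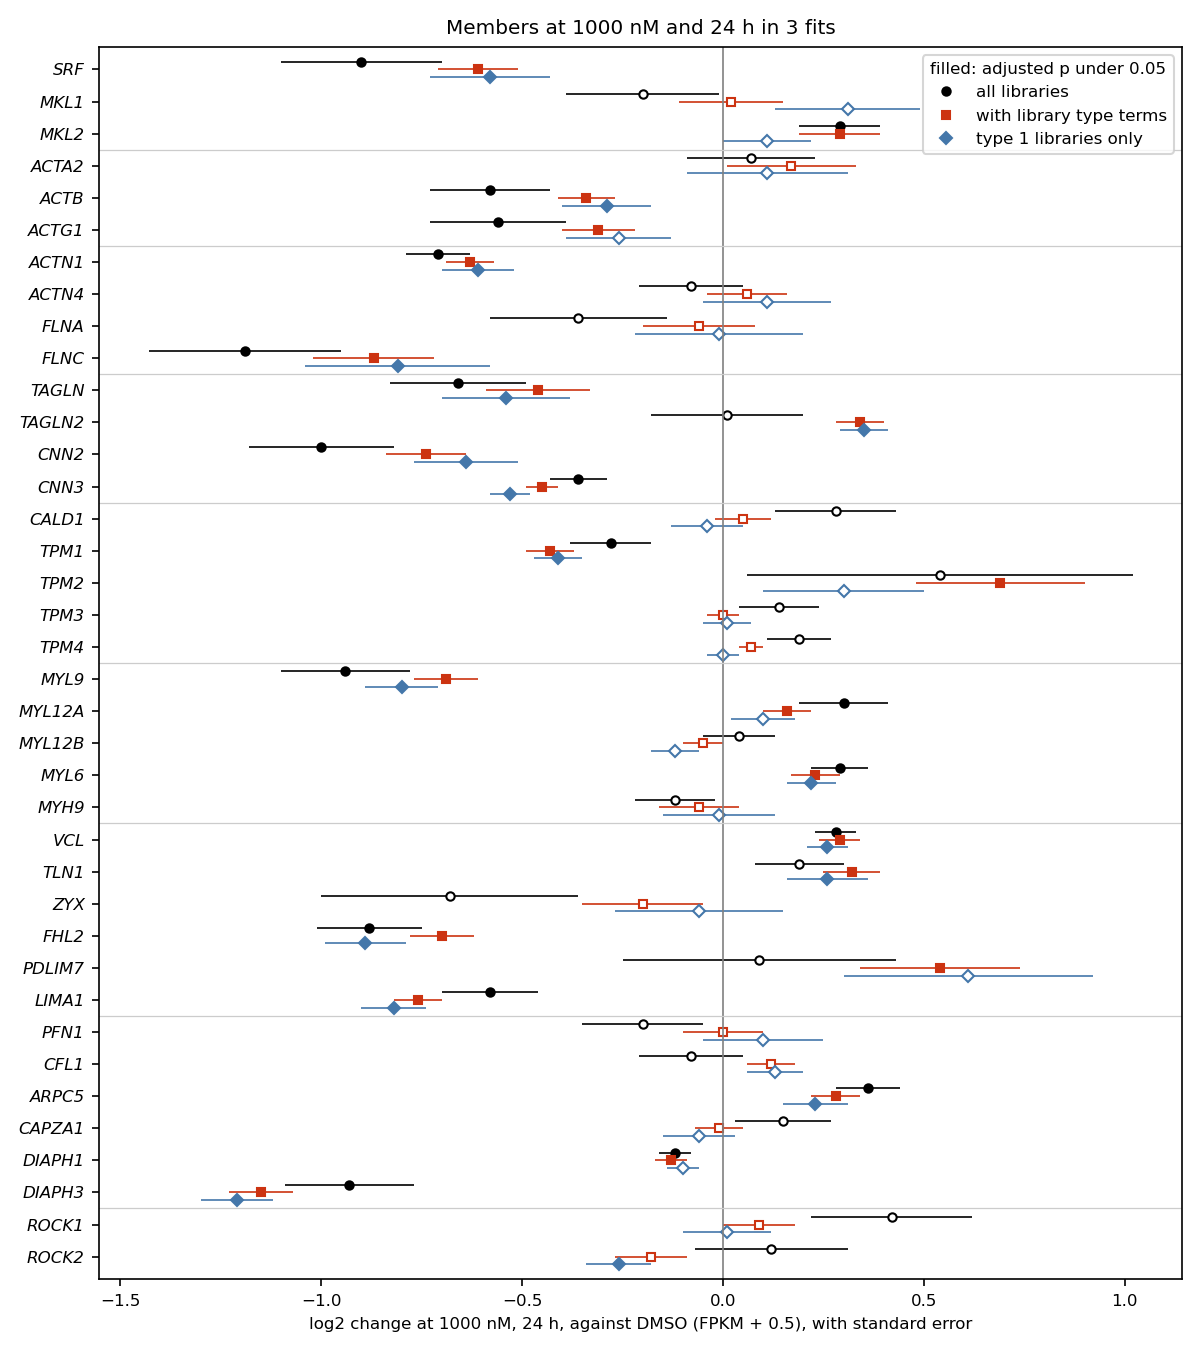
Log2 change at 1000 nM and 24 h against DMSO (horizontal axis, FPKM plus 0.5) of 38 genes, with bars of 1 standard error, from all libraries (black), with library type terms (red) and within first-type libraries (blue). Filled symbols passed an adjusted p of 0.05. SRF moves from -0.90 to -0.61 and -0.58, LIMA1 from -0.58 to -0.76 and -0.82, and ZYX from -0.68 to -0.20 and -0.06.

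The levels can be set in order of dose at 24 h. In a direct comparison of 1000 with 100 nM, 5 of 38 genes were lower and 0 higher, where 4.94% of all genes were called, 2.86% lower and 2.08% higher. The 5 genes were ACTB (-0.58, adjusted p = 0.0401), ACTG1 (-0.66, adjusted p = 0.0359), ACTN1 (-0.34, adjusted p = 0.0175), CNN2 (-0.74, adjusted p = 0.0256) and MYL9 (-0.73, adjusted p = 0.0149). All 3 libraries at 100 nM are of the first type and 2 of 3 at 1000 nM are not, and the result rests on single libraries. Of the listed genes, 0 were called without replicate 1 or replicate 2 at 100 nM, or without replicate 1 or replicate 3 at 1000 nM. The count was 2 without replicate 3 at 100 nM and 12 without replicate 2 at 1000 nM. Type terms called 7 lower, those 5 with CNN3 (-0.21) and DIAPH3 (-0.47). Within the first type 4 were called: CNN3 (-0.28), MYL9 (-0.48), FHL2 (-0.35) and DIAPH3 (-0.55). The first-type fit sets 1 library at 1000 nM against 3 at 100 nM. SRF did not pass in any of the 3 fits (-0.53, -0.14 and -0.13). At 6 h the comparison of 1000 with 100 nM called 0 of 38, where 0.0189% of all genes were called, each of them lower, with 0 at an unadjusted p under 0.05 and 0 called by voom.

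Time was the next question. At 1 h, 0 of 38 genes were called at any dose, as were 0% of all genes; an unadjusted p under 0.05 was met by 3, 2 and 2 genes at 1000, 300 and 100 nM. At 3 h, 0 of 38 were called at any dose, where 0.132%, 0.126% and 0.0693% of all genes were at 1000, 300 and 100 nM (0.107%, 0.101% and 0.0693% lower, 0.0252%, 0.0252% and 0% higher), and an unadjusted p under 0.05 was met by 2, 4 and 1 genes. With voom on recovered reads the count was also 0 at both times and every dose. At 6 h the first calls appeared. At 1000 nM FHL2 and LIMA1 were lower (2.01% of all genes called, 1.3% lower and 0.706% higher), and at 300 nM FHL2 was lower (1.67%, 1.11% lower and 0.561% higher). At 100 nM limma called 0 genes (0.863%, 0.655% lower and 0.208% higher); 4 met an unadjusted p under 0.05 and voom called 1. Single libraries moved these small counts, to 2 at 300 nM without replicate 2, and without DMSO replicate 5 to 3 at 300 nM and 1 at 100 nM.

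FHL2 at 6 h was at 7.51, 9.63 and 10.4 FPKM in DMSO (lowest, median and highest), and at 6.54, 7.10 and 6.66 at 100 nM, 5.50, 5.41 and 6.46 at 300 nM, and 5.77, 6.17 and 6.19 at 1000 nM. All 9 treated libraries lay below all DMSO libraries. The change at 1000 nM was 1.5-fold lower (-0.59, SE 0.13, adjusted p = 0.00331). LIMA1 was at 30.3, 36.8 and 44.7 FPKM in DMSO and at 27.1, 27.3 and 25.0 at 1000 nM, without overlap. Its change of -0.46 (SE 0.12, adjusted p = 0.0309) was lost without any of the 3 libraries at 1000 nM or DMSO replicate 3, 5 or 6, at -0.48 to -0.40 and adjusted p = 0.0589 to 0.226.

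SRF at 6 h was at 19.5, 30.8 and 47.8 FPKM in DMSO and at 21.9, 23.8 and 22.3 at 1000 nM. The treated libraries lay below all DMSO libraries but the second-type one, replicate 5. SRF was called lower at all 3 doses with type terms, by -0.40 at 100 nM, -0.60 at 300 nM and -0.54 at 1000 nM (adjusted p = 0.0124, 3.11e-05 and 0.00014). With type terms 5, 6 and 4 genes were lower at 1000, 300 and 100 nM (4.65%, 4.68% and 2.17% of all genes called). Within the first type 7, 4 and 5 were lower (7.70%, 4.83% and 3.37%); at 1000 nM these were SRF, ACTN1, CNN2, CNN3, TPM1, FHL2 and LIMA1. ZYX was called only at 300 nM with type terms (-0.57). No gene of the list was called higher at 6 h in these fits. ACTB, at 1711, 1788 and 1629 FPKM at 1000 nM and at 1256, 1771 and 2286 in DMSO, did not pass at 6 h.

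The change of the 1000 nM effect from 6 to 24 h was tested directly. It was called for 9 genes, 6 toward lower and 3 toward higher, where 15.1% of all genes were called, 6.95% toward lower and 8.16% toward higher. FLNC (-1.03), MYL9 (-0.88), DIAPH3 (-0.81), CNN2 (-0.79), TAGLN (-0.72) and ACTN1 (-0.51) moved down, and VCL (0.38), ARPC5 (0.38) and MYL6 (0.30) moved up. The count was 4 without replicate 2 at 1000 nM and 6 h or without replicate 1 at 1000 nM and 24 h, and 5 without replicate 3 there. FLNC, TAGLN, CNN2, MYL6, ARPC5 and DIAPH3 were each lost in 1 or more of 18 refits that left out a library, FLNC in 8. With type terms 14 were called (27.4% of all genes) and in the first type 10 (23.2%). DIAPH3 went from no call at 6 h, with 16.5, 16.4 and 15.5 FPKM at 1000 nM, to the values given for 24 h, and its change between times was -1.11 with type terms. FHL2 and SRF were not called in this test. From 3 to 6 h, limma and voom called 0 genes in all libraries (0.227% of all genes, 0.189% toward lower and 0.0378% toward higher) and 2 met an unadjusted p under 0.05, while FHL2 was called with type terms (-0.55) and in the first type (-0.66).

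DMSO libraries themselves differed with time. Between 1 and 24 h in DMSO, 6 genes were lower and 2 higher, where 18.2% of all genes were called, 8.45% lower and 9.78% higher. FLNC went from 49.0 ± 9.74 to 29.8 ± 9.78 FPKM (n = 6 each; -0.75, adjusted p = 0.00465), MYH9 from 187 ± 13.0 to 149 ± 23.9 (-0.34, adjusted p = 0.00223) and ACTN1 from 73.0 ± 5.71 to 60.2 ± 4.72 (-0.28, adjusted p = 0.00157). VCL and FHL2 were called lower (-0.14 and -0.30), FHL2 losing the call in 7 of 12 refits that left out a library, at adjusted p up to 0.206. TPM2 was called lower by -1.21 (adjusted p = 0.0235), a value that was 0.15 within first-type libraries, and 3 of 6 DMSO libraries at 1 h are of the third type. MYL6 rose from 124 ± 9.29 to 168 ± 17.2 FPKM without overlap (0.43, adjusted p = 2.2e-07), and ACTA2 from 0.701 ± 0.118 to 1.27 ± 0.339 (0.54, adjusted p = 0.00263). Without DMSO replicate 3 at 1 h, a second-type library, 15 genes were called. FLNC, ACTN1 and FHL2, which were lower under the compound at 24 h, were also lower in DMSO at 24 h than at 1 h, and each dose was compared only with DMSO of its own time.

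Other genes of the pathway were read from 4 lists, each set beside the 34.7% called at 1000 nM and 24 h. Values of the genes named from these lists are for all libraries only, and 2 of the 3 libraries in that group are of the second type. Of 20 tested other SRF and MRTF targets, 6 were lower and 3 higher (median log2 change -0.07), against 5 and 4 with type terms. THBS1, the secreted thrombospondin 1, was at 151 ± 12.7 FPKM in DMSO (n = 6) and 38.7 ± 2.94 at 1000 nM (n = 3), a change of -1.95 (SE 0.06, adjusted p = 3.55e-29). It was already lower at 6 h, at 200 ± 4.61 and 116 ± 5.25 FPKM (-0.78). NEXN, an actin-binding protein of muscle, was lower (-1.38, adjusted p = 2.08e-05), from 6.42 ± 2.22 to 2.24 ± 1.08 FPKM. GSN, or gelsolin, which severs filaments, and ITGA5, the fibronectin receptor subunit, were higher by 1.5 and 0.74 (adjusted p = 1.16e-08 and 8.5e-05). The named targets moved in both directions.

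Among 7 tested immediate early and ternary complex genes of the SRF pathway's other arm, 0 were lower and 1 was higher, ELK3 (0.41, adjusted p = 0.000123), with a median of 0.24. With type terms, where 47.5% of all genes were called, the counts were 0 and 3. Among 33 tested genes of filament assembly and turnover, 1 was lower and 15 were higher, with a median of 0.24, against 1 and 17 with type terms. TMSB10, a thymosin that holds monomeric actin, went from 1830 ± 79.0 to 3145 ± 197 FPKM (0.78, adjusted p = 2.3e-10). The formin FMNL2 and the cofilin phosphatase SSH3 were higher by 0.65 and 0.70 (adjusted p = 4.08e-05 and 0.0407), and COTL1, a coactosin-like actin-binding protein, was lower by -0.64 (adjusted p = 0.000124). SSH3 was low and its groups overlapped, at 1.13 to 5.28 FPKM in DMSO and 4.02 to 8.57 at 1000 nM.

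Of 24 tested genes of focal adhesions and the cortex, 2 were lower and 9 higher (median 0.14). With type terms, where 47.5% of all genes were called, 4 were lower and 12 higher. EZR, or ezrin, went from 113 ± 7.20 to 234 ± 14.1 FPKM (1.05, adjusted p = 2.66e-20), MYO1E and TES were higher by 1.00 and 0.77, and ANLN, or anillin, a scaffold of the cleavage furrow, was lower by -0.76 (adjusted p = 1.39e-05).

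**Figure D4:**
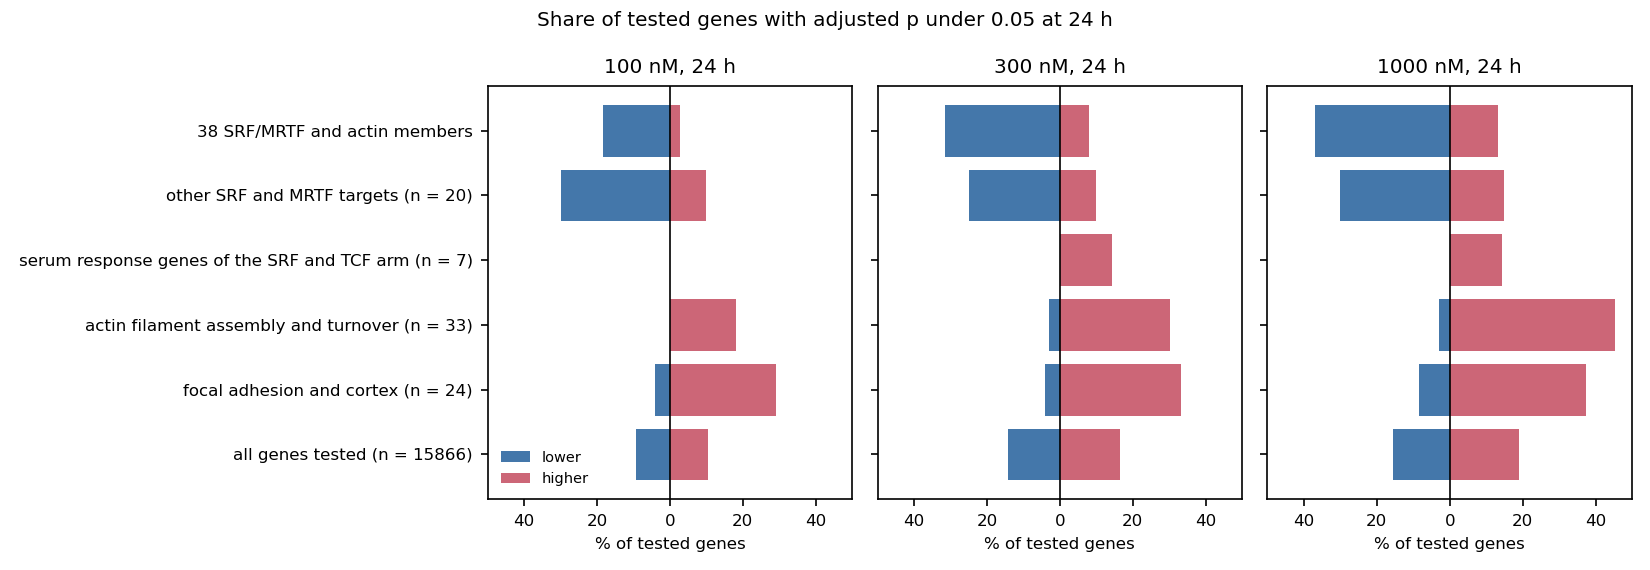
Share of tested genes (horizontal axis, %) called lower (blue, left of 0) and higher (red, right of 0) at 24 h for each dose, for the 38 listed genes, 4 other lists and all genes tested. At 1000 nM the 38 listed genes have 14 lower and 5 higher, while the list of filament assembly and turnover has 1 lower and 15 higher.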

How the data were processed

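Poly(A) RNA was made into libraries with a stranded kit and sequenced as single reads, per the labels' protocols. The submitters' processing notes name STAR 2.4.2a, featureCounts 1.4.6-p2, Subread, DESeq2 and the build hg19. The sources used here do not state the annotation release or whether counting used strand. The deposited values are on a log2 scale: the file is labelled FPKM, but the values fit log2 of FPKM plus 1, as the whole reads below show. The tests had been planned for FPKM, so the values were converted back. Whole reads were recovered from the FPKM steps (1304036 of 1304094 values above 0 were within 0.01 of a whole read) and used for depth and for a voom alternative.

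The 15866 genes that reached 1 FPKM or more in 3 or more libraries were tested on log2 of FPKM plus 0.5 with limma 3.58.1 (R 4.3.3), 1 mean for each of 16 groups, 44 residual degrees of freedom, intensity-dependent variance and Benjamini-Hochberg adjustment over all genes at 0.05. A log2 change understates that of low genes. The 39 genes and all lists were chosen with earlier results of these data known. Per-library values were given for SRF, MKL1, MKL2, ACTB, ACTG1, ROCK1, ROCK2 and genes called at 1000 nM and 24 h with a log2 change of 0.5 or more in size (at most 16), and the up to 4 called genes with the largest change were named from each other list. Another list is not reported here. Library types came from the mean log2 level of 6 pseudogenes minus that of 5 others, chosen after seeing the data, and from MT-ND6 above 20 FPKM. Tested on simulated data for 1000 nM against DMSO at 24 h (15866 genes), the fit recovered 90% of 50 genes changed 0.5-fold, 94% of those changed 2-fold, and 28% of those changed 0.7-fold or 1.4-fold, with 31 of 151 calls false, 0 of them among 5333 unchanged genes at 10 FPKM or more. The simulated libraries had no library types and the same spread setting for every gene. These rates therefore do not give the share of false calls in the real libraries, at any level. Alternatives were a pseudocount of 0.1, no filter, median-of-ratios scaling, library type terms, first-type libraries only, leaving out the 3 shallowest libraries, voom (5179 genes called at 1000 nM and 24 h), and each library left out in turn.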

Additional observations from a re-analysis of the deposited data

Results flagged for a closer look

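In 152 tests, the highest or lowest of 6 DMSO libraries was compared with the other 5. Dixon's test was run on log2 of FPKM plus 0.5, and levels are given below in FPKM. The library stood apart in 38 tests, or 25%, where chance gives about 1 in 20. Of these, 34 fell in 4 libraries, all of the second type: replicate 3 at 1 h (11), replicate 6 at 3 h (9), replicate 2 at 24 h (8) and replicate 5 at 6 h (6). The part of library type in these values was not tested.

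In DMSO replicate 3 at 1 h, the low values were SRF 20.9, ACTB 1216, FLNA 162, FLNC 31.2, TAGLN2 210, CNN2 33.0, ZYX 25.1 and FHL2 7.33 FPKM, and the high values were TPM3 97.6, TPM4 176 and CAPZA1 89.7. In replicate 6 at 3 h, SRF 19.9, ACTN1 64.2, CNN2 34.4, ZYX 27.2, PDLIM7 10.6 and PFN1 344 FPKM were low, and TPM1 10.2, LIMA1 44.7 and DIAPH3 23.1 were high. In replicate 5 at 6 h, TAGLN2 226 and CFL1 167 FPKM were low, and CALD1 30.6, TPM4 165, ROCK1 14.0 and ROCK2 16.5 were high. In replicate 2 at 24 h, TAGLN2 194, TPM2 0 and FHL2 4.99 FPKM were low, and TPM1 11.4, TPM3 102, LIMA1 52.3, ROCK1 13.4 and ROCK2 16.5 were high. SRF, CNN2, ZYX and FHL2 each stood low in 2 of these libraries and TAGLN2 in 3. ROCK1, ROCK2, LIMA1, TPM1, TPM3 and TPM4 each stood high in 2. The other 4 came from libraries of the first or the third type: MKL2 0.611 and VCL 40.8 FPKM were lowest in replicate 4 at 1 h, ACTA2 1.72 was highest in replicate 1 at 6 h, and DIAPH1 44.7 was lowest in replicate 4 at 6 h.

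For 9 genes the effect of 1000 nM differed between 6 and 24 h in a direct test of the difference (limma). On the log2 scale it was more negative at 24 h for FLNC (-1.03), MYL9 (-0.88), DIAPH3 (-0.81), CNN2 (-0.79), TAGLN (-0.72) and ACTN1 (-0.51), and more positive for VCL (0.38), ARPC5 (0.38) and MYL6 (0.30).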

How the results depend on the processing

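Of 67 calls of a gene in a comparison, all 67 held their direction and side of the threshold with a pseudocount of 0.1, 66 with median-of-ratios scaling, 65 with library type terms, 62 without the 3 shallowest libraries, 59 with no filter, 58 with voom and 55 within the first type. TPM2 between DMSO at 24 and 1 h turned from -1.21 to 0.15 in the first type. Of the 67, 29 were lost in some refit that left out a library. Counts of genes called that moved by over 1.5 times were as follows. At 6 h, 1000 nM went from 2 to 5 with type terms and 7 in the first type. At 6 h, 300 nM went from 1 to 6 and 4 in those fits, to 2 without shallow libraries and 3 with voom. At 6 h, 100 nM went from 0 to 4 and 5 in those fits, to 2 without shallow libraries and 1 with voom. At 24 h, 100 nM went from 8 to 16 with type terms and 18 in the first type. For 1000 against 100 nM at 24 h, 5 became 3 with no filter. For the change from 3 to 6 h, 0 became 1 with type terms and 1 in the first type. For the change from 6 to 24 h, 9 became 5 with no filter and 14 with type terms. For DMSO at 24 against 1 h, 8 became 14 with type terms and 15 in the first type. The causes were not tested. With each library left out in turn, counts ranged from 1 to 2, 1 to 3 and 0 to 1 at 1000, 300 and 100 nM and 6 h, from 15 to 21, 10 to 16 and 7 to 10 at 24 h, from 0 to 12 for 1000 against 100 nM at 24 h, from 4 to 13 for the change from 6 to 24 h and from 6 to 15 for DMSO over time. No paired analysis was possible because replicate numbers were given in accession order only and pair no libraries. Depth limits TAGLN, TPM2 and ACTA2 most, which rested on 0 to 3 reads in the shallowest DMSO library.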
